A study of Oncorhynchus mykiss with 14 samples.

Results

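The miRNAs numbered 19, 25 and 92 were followed in small RNA libraries of rainbow trout fat cells. They were chosen by number: of the 899 miRNA entries in the deposited table, 13 are named miR-19, miR-25, miR-92 or miR-363, and 9 of these were above 0 in at least 4 of the 14 libraries and could be tested, out of 327 entries tested in all. None is a miR-363. The 9 tested entries hold 5 distinct miRNAs, because several names share reads. miR-92a-3p, miR-92a-3-3p and miR-92a-4-3p had identical counts, as had miR-92b-5p and miR-92b-3p. miR-25-3p and miR-25-3-3p differed in 1 library only, with 18746 against 18741 reads. ssa-miR-19d-3p and ssa-miR-19c-4-3p each stand alone, and each group of shared reads is described below under the name miR-92a-3p, miR-92b-5p or miR-25-3p (in full ssa-miR-92a-3p, ssa-miR-92b-5p and ssa-miR-25-3p, where ssa stands for Atlantic salmon, whose names the table uses). The remaining 4 entries (miR-19a-3p, miR-19a-3-3p, miR-19c-5p and miR-19c-3-3p) were above 0 in fewer than 4 libraries. Joining only identical counts, and so keeping both miR-25 entries apart, would give 6 distinct miRNAs.

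In vertebrates these miRNAs are encoded in clusters, in which several hairpins are cut from a shared transcript. miR-19 and miR-92a lie with miR-17, miR-18 and miR-20 in the miR-17-92 cluster, miR-25 lies with miR-93 and miR-106b in a related cluster that sits in an intron of the replication gene MCM7 in mammals, and miR-363 belongs to the miR-106a cluster. miR-25, miR-92a, miR-92b and miR-363 share their seed, the stretch near the 5′ end that pairs with target transcripts, whereas miR-19 has a seed of its own. The miR-17-92 cluster is known for driving cell growth, and in mouse cell lines it favours the formation of fat cells. miR-92a restrains vessel growth in the mouse.

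The libraries were made from mature adipocytes, cells filled with stored fat, of adult untreated trout. The cells were released with collagenase from 3 depots: visceral fat (VAT, 4 libraries, replicates 1, 3, 4 and 5), subcutaneous fat (SAT, 5) and intramuscular fat (IMAT, 5). All fish had been kept at 15 ± 1 °C under a 12 h light and 12 h dark cycle and had gone 24 h without food. Whether each library of a depot stands for its own fish is not said in the labels. The p-values below therefore set depot differences against the spread of these libraries only, and that spread may be technical. The design compares the depots with each other.

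Libraries held between 759369 (IMAT 4) and 11843805 (IMAT 5) reads on miRNA entries. The depots differed in their muscle content: miRNAs of the muscle list (miR-1, miR-133, miR-206 and miR-499) made up 0.0888 to 4.65% of reads in VAT, 3.37 to 11.9% in SAT and 65.5 to 89.6% in IMAT, and none of its 9 entries was at 0 in every library of a depot. Shares of a library's reads here and below are of listed reads, so a read listed under several names counts once per name. miR-1-3-3p and miR-1-4-3p had the same levels, close to those of miR-1-3p, and both miR-133a entries were nearly equal. Entries were also joined where their counts were nearly equal in the libraries in which both were above 0. IMAT 5 then held 6912879 reads in place of 11843805, beside 4082633 listed reads outside the muscle list. The muscle share listed in IMAT thus counts some reads more than once, and the muscle share of distinct reads was not computed. A listed share in IMAT is a share of a pool that is mostly muscle entries, repeats included. Levels below are TMM-scaled CPM, the share of a library's reads after scaling by the trimmed mean of M-values, which sets aside the most extreme entries. Deposited CPM, which divides by the library's reads alone, is named where it is used. The tested members are all 22 nt long. Comparisons of level between members are comparisons of reads, and how evenly different small RNAs were captured was not tested.

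miR-92a-3p was the most abundant member and miR-25-3p followed it. Together they carried 94.2 to 99.9% of the reads of the 5 distinct miRNAs in every library. miR-92a-3p stood at 1741, 1276, 6740 and 1227 TMM-scaled CPM in VAT 1, 3, 4 and 5. In SAT 1 to 5 it stood at 3020, 2001, 1999, 1567 and 2405 (mean 2198 ± 547, SD, n = 5). In IMAT it was listed at 0 in replicates 1 and 4 and stood at 1618, 1088 and 3588 in replicates 2, 3 and 5. VAT 4 lay 3.87-fold above the next VAT library and IMAT 5 lay 2.22-fold above the next IMAT library, and the depots overlapped. At the lowest deposited CPM among the other IMAT libraries, 487, about 1763 reads would have been counted in IMAT 1 and 370 in IMAT 4. Such zeros were found in 97 of the 327 tested entries, and they are given here only as listed at 0.

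miR-25-3p was above 0 in all 14 libraries. It stood at 953, 585, 4760 and 692 TMM-scaled CPM in VAT 1, 3, 4 and 5 (mean 1747 ± 2014, SD, n = 4). In SAT 1 to 5 the values were 1253, 999, 1022, 867 and 1101 (1048 ± 142.03, n = 5). In IMAT 1 to 5 they were 720, 469, 429, 360 and 2296 (855 ± 817, n = 5). The SAT libraries lay close together, while VAT 4 exceeded the next VAT library 4.99-fold and IMAT 5 exceeded the next IMAT library 3.19-fold. The order of the means was VAT, SAT, IMAT, and the libraries of each neighbouring pair in it overlapped.

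miR-92b-5p, which in mammals comes from a locus of its own, was rare. Both of its arms carry the same counts, so which arm was sequenced is uncertain. It had 29, 33, 275 and 21 reads in VAT 1, 3, 4 and 5, or 5.01, 3.78, 27.0 and 1.25 TMM-scaled CPM. In SAT 1 to 5 it had 28, 20, 22, 2 and 8 reads, or 8.03, 4.62, 4.86, 0.45 and 1.44. In IMAT 1 to 5 it had 59, 4, 2, 11 and 18 reads, or 37.2, 3.0, 1.5, 17.2 and 2.20. IMAT 1 and IMAT 4 were high in IMAT, and these are the same libraries in which miR-92a-3p was listed at 0. The counting intervals of their deposited CPM, 12.4 to 21.0 and 7.23 to 25.9 (exact Clopper-Pearson 95%, covering counting error only), lie above those of the other 3 IMAT libraries, whose highest bound was 2.82.

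miR-19d-3p was the miR-19 form found in all libraries. It stood at 16.8, 7.11, 5.90 and 31.5 TMM-scaled CPM in VAT 1, 3, 4 and 5 (mean 15.3 ± 11.8, SD, n = 4). In SAT 1 to 5 it stood at 12.9, 13.9, 11.5, 14.3 and 15.1 (13.5 ± 1.39, n = 5), and in IMAT 1 to 5 at 6.94, 9.01, 5.25, 3.13 and 3.67 (5.60 ± 2.41, n = 5). Every IMAT library lay below every SAT library, as was so for 13.8% of all tested entries, and IMAT overlapped with VAT. The counts behind the IMAT values were 11, 12, 7, 2 and 30 reads. As deposited CPM the 5 IMAT libraries spanned 2.53 to 3.04, below all VAT libraries (9.0 to 47.9) and all SAT libraries (12.9 to 22.9). The same held for 27.5% of all tested entries against VAT and for 42.5% against SAT, in libraries whose muscle share of listed reads was 65.5% or more. The part of the muscle reads in these deposited values was examined by leaving them out of the totals, as given with the depot comparisons.

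**Figure D1:**
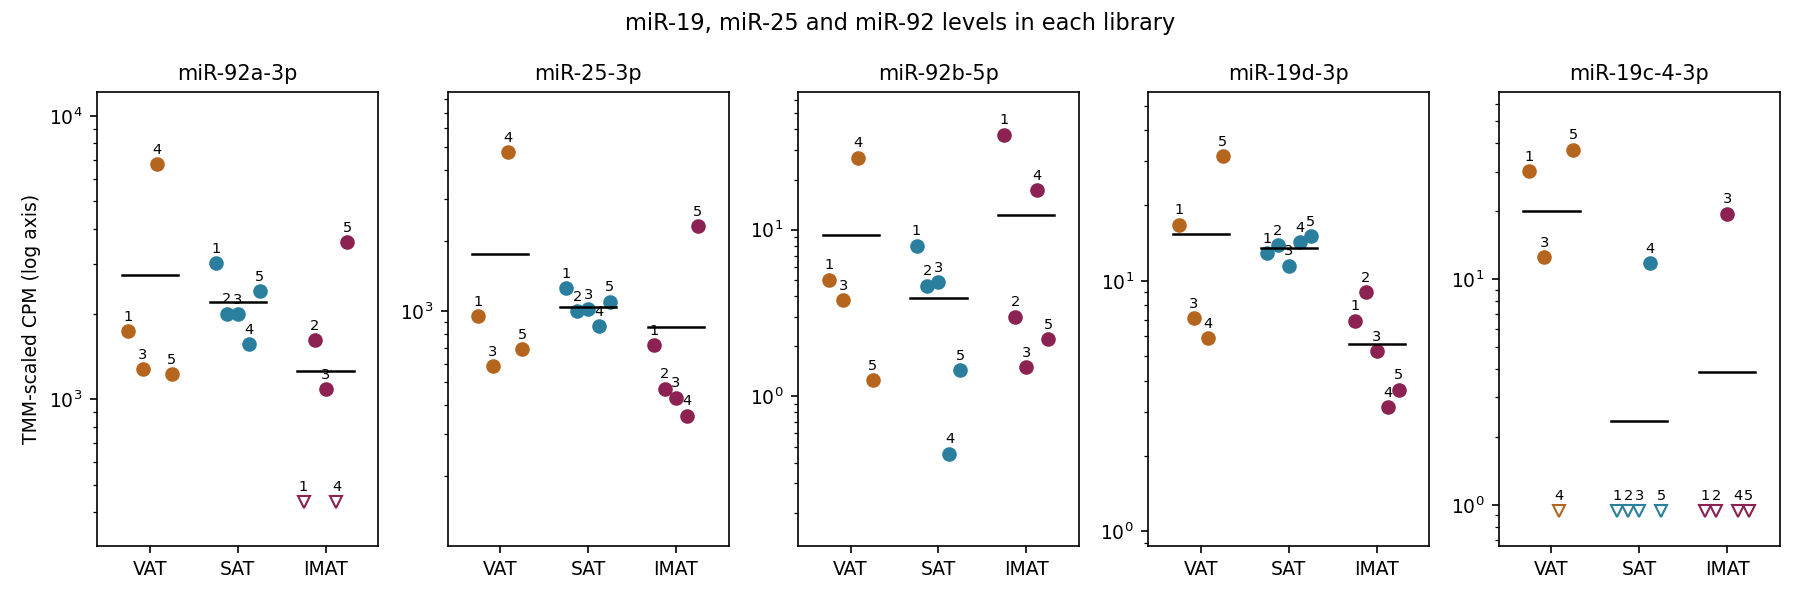
Levels of the 5 distinct miRNAs as TMM-scaled CPM (log axis, each panel with its own range) in each library, numbered by replicate; black bars are depot means over all libraries, zeros included, and open triangles at the bottom mark libraries listed at 0. VAT 4 (6740 and 4760) and IMAT 5 (3588 and 2296) are the highest of their depots for miR-92a-3p and miR-25-3p, whereas for miR-19d-3p VAT 4 is the lowest of VAT at 5.90.

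miR-19c-4-3p was the least regular member. It had 174, 109 and 632 reads in VAT 1, 3 and 5, 52 reads in SAT 4 and 26 reads in IMAT 3, and was listed at 0 in the other 9 libraries. In 8 of those 9 the lowest share above 0 in the same depot would have given at least 20 reads, and in IMAT 4, the shallowest library, 8 reads. The other miR-19c names held overlapping sets of reads. miR-19c-3-3p had the same 174 and 109 reads in VAT 1 and VAT 3 and was at 0 elsewhere. miR-19c-5p had 173 and 109 reads there and 12 in VAT 4. The 3 names thus agreed within 1 read in VAT 1 and VAT 3, whereas in VAT 5 only miR-19c-4-3p and in VAT 4 only miR-19c-5p was above 0. The 23 nt miR-19a entries were above 0 in the same 3 libraries: miR-19a-3-3p had 460, 299 and 287 reads in VAT 3, VAT 5 and SAT 1, and miR-19a-3p had 454, 280 and 286. These 4 entries were not tested, and no depot difference is drawn from them.

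In the comparison of depots no member passed the test. With edgeR's quasi-likelihood test on the counts (TMM scaling, all 14 libraries in 1 fit, Benjamini-Hochberg adjustment over 327 entries, threshold 0.05), 13.5% of all entries were called between IMAT and VAT (25 higher, 19 lower), 12.5% between SAT and VAT (24 higher, 17 lower) and 6.73% between IMAT and SAT (12 higher, 10 lower). Of the 5 members 0 were called in each. At an unadjusted p under 0.05 there were 111, 81 and 84 entries, among them 1, 0 and 1 members, in both cases miR-19d-3p. The median log2 fold change of all entries was -0.60, -0.05 and -0.43 in these comparisons, and that of the 9 member entries was -1.12, -0.74 and -0.29.

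miR-19d-3p came nearest to a call. Its log2 fold change was -1.44 ± 0.56 (SE) between IMAT and VAT, with a 95% interval of -2.66 to -0.23 and an edgeR adjusted p of 0.10. Between IMAT and SAT it was -1.26 ± 0.54 (interval -2.43 to -0.10, edgeR adjusted p = 0.15), and all 5 IMAT libraries lay below all 5 SAT libraries. That value varied with the setting: -0.88 ± 0.57 without VAT 1, -0.81 ± 0.53 with entries of nearly equal counts joined and -2.79 ± 0.55 with plain library totals. Between SAT and VAT it was -0.18 ± 0.55, with an interval of -1.37 to 1.01.

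For miR-25-3p the log2 fold change was -1.03 ± 0.67 between IMAT and VAT (interval -2.48 to 0.41, edgeR adjusted p = 0.31). Between SAT and VAT it was -0.74 ± 0.67 (-2.18 to 0.71), and between IMAT and SAT -0.29 ± 0.64 (-1.66 to 1.07). Differences of up to about 1 log2 unit in either direction between IMAT and SAT are thus within the interval. The sign of the miR-25-3p values against VAT changed with VAT 4 left out, to 0.21 for SAT and 0.30 for IMAT. The IMAT value against SAT was 0.10 without VAT 4, a library outside that comparison. It was above 0 in other settings too, at 0.14 without VAT 1 and 0.13 with no filter on entries. It stayed below 0 with any single SAT library left out. With IMAT 5 left out in place of VAT 4, miR-25-3p was called lower in IMAT against VAT, at -1.48 (edgeR adjusted p = 0.042), where 21.1% of all entries were called.

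For the other members the intervals were wider. The log2 fold change of miR-92a-3p was -1.12 ± 1.48 between IMAT and VAT (interval -4.30 to 2.06), -0.32 ± 1.48 between SAT and VAT (-3.50 to 2.86) and -0.80 ± 1.41 between IMAT and SAT (-3.83 to 2.22). That of miR-92b-5p was 0.39 ± 1.12 between IMAT and VAT (-2.03 to 2.81), -1.26 ± 1.11 between SAT and VAT (-3.65 to 1.14) and 1.65 ± 1.09 between IMAT and SAT (-0.69 to 3.98). For miR-19c-4-3p, at 0 in most libraries, the intervals ran from -7.12 to 2.40, from -7.87 to 1.73 and from -3.77 to 5.20 in the same order. All of these intervals include 0.

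Which members were called in IMAT changed with how the libraries were scaled. With plain library totals, IMAT against VAT gave calls for miR-19d-3p at -3.01 log2 units (edgeR adjusted p = 0.0013) and for miR-25-3p at -2.35 (edgeR adjusted p = 0.024). There 49.5% of all entries were called (18 of 162 higher) and the median of all entries was -1.98. Against SAT the call was for miR-19d-3p at -2.79 (edgeR adjusted p = 0.0018), where 40.1% were called (7 of 131 higher) and the median was -1.81. When totals were taken without muscle miRNAs, the median of all entries became 0.30 against VAT and 0.52 against SAT. There 0 members were called, beside 19.3% of all entries against VAT (57 higher, 6 lower) and 10.1% against SAT (29 higher, 4 lower), and miR-19d-3p stood at -0.44 ± 0.57 against VAT and -0.32 ± 0.55 against SAT. Under that scaling miR-25-3p changed sign between IMAT and SAT, from -0.29 to 0.43. A lower miR-19d-3p level in IMAT therefore holds relative to all listed reads. It was not distinguished from the spread relative to the listed reads that are not muscle miRNA. Whether IMAT adipocytes held less of these miRNAs each or gave fewer of the library's reads cannot be told apart in these bulk samples.

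**Figure D2:**
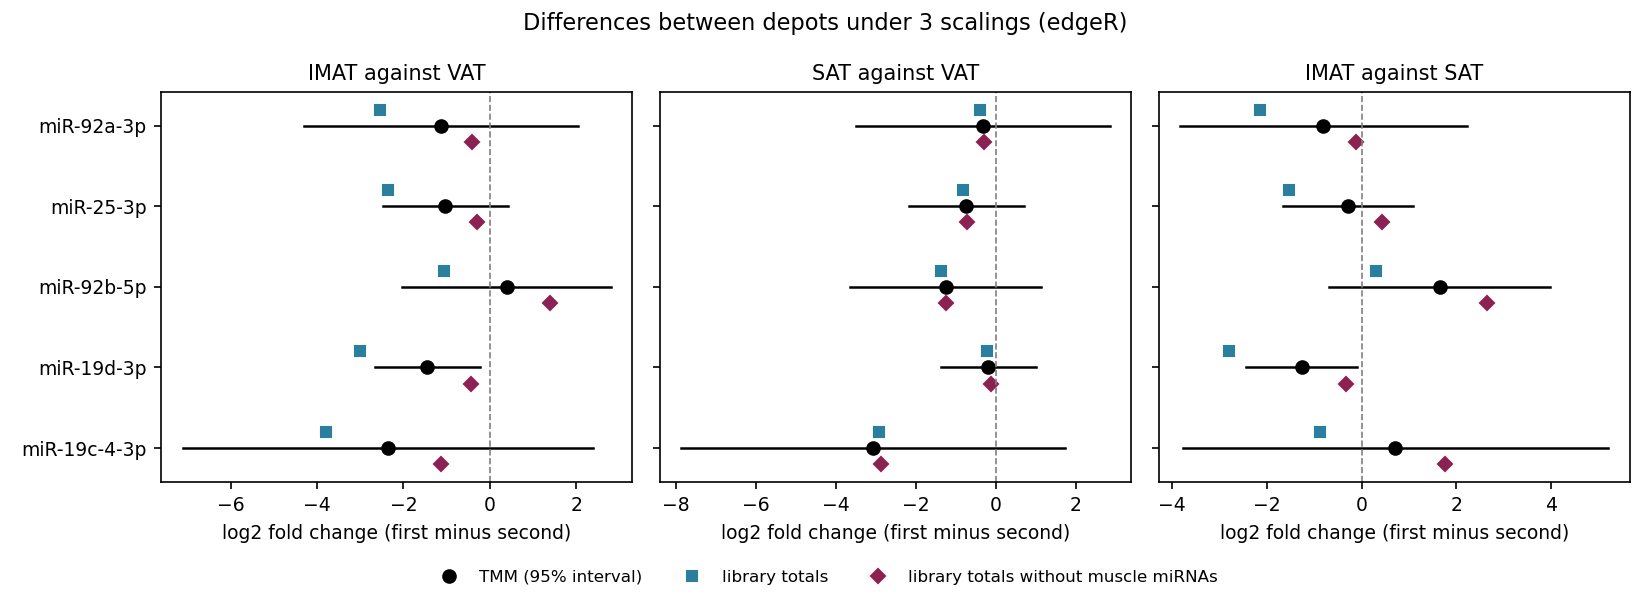
Log2 fold changes of the 5 distinct miRNAs in each depot comparison (first depot minus second) from edgeR, with TMM scaling (black, with 95% interval), library totals (squares) and library totals without muscle miRNAs (diamonds). In IMAT the values move with the scaling: miR-19d-3p against VAT stands at -3.01, -1.44 and -0.44 under library totals, TMM and totals without muscle miRNAs.

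Calls in IMAT also varied with the test and with the libraries used. DESeq2 called miR-19d-3p between IMAT and VAT (log2 fold change -1.56, DESeq2 adjusted p = 0.032), where 27.3% of all entries were called. limma on log2(deposited CPM + 1), which works on shares of all reads, called 4 members lower in IMAT than in VAT (miR-19c-4-3p, miR-92a-3p, miR-25-3p and miR-19d-3p; 53.8% of all entries called) and 3 lower in IMAT than in SAT (the same without miR-19c-4-3p; 53.2% called). Of all entries called, 160 of 176 and 165 of 174 were lower in IMAT, and the medians of all entries were -1.50 and -1.58. With zeros beyond counting error set to missing, limma called the same 4 and 3 (67.3% and 63.6% of all entries called, 201 of 220 and 196 of 208 lower). The log2 difference of miR-92a-3p between IMAT and VAT went from -5.72 to -1.80. For miR-19c-4-3p that setting left only IMAT 3, at 26 reads, and IMAT 4, at 0, on the IMAT side. The 0 of IMAT 4 was kept because about 8 reads would have been counted there. The repeated call of miR-19c-4-3p therefore adds no separate support. Without VAT 4, edgeR called miR-19d-3p between IMAT and VAT (-1.55, edgeR adjusted p = 0.045; 21.4% of all entries called). Without both VAT 4 and IMAT 5, a setting added after the data were seen, miR-19d-3p was called between IMAT and VAT (-1.52, edgeR adjusted p = 0.039; 32.7% called). In that setting miR-25-3p was called lower in IMAT against SAT, at -0.69 ± 0.19 (edgeR adjusted p = 0.024; 18.9% called).

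A ratio of 2 miRNAs within a library needs no scaling between libraries. The ratio of miR-92a-3p to miR-25-3p reads was 1.83, 2.18, 1.42 and 1.77 in VAT 1, 3, 4 and 5. It was 2.41, 2.0, 1.96, 1.81 and 2.19 in SAT 1 to 5, and 3.45, 2.54 and 1.56 in IMAT 2, 3 and 5. miR-92a-3p exceeded miR-25-3p in all 12 libraries where both were above 0. On the log2 scale the ratio had an SD of 0.34 over these 12 libraries, against 0.96 for the miR-25-3p level and 0.75 for the miR-92a-3p level. Both miRNAs were thus high together in VAT 4 and IMAT 5, where the ratio was at its lowest values in their depots. The depots differed by 0.21 to 0.43 in mean log2 ratio (two-sided exact permutation tests, adjusted p = 0.59 each over 9 ratio tests; the smallest p the design allows is 0.029 for IMAT against VAT, 0.0079 for SAT against VAT and 0.018 for IMAT against SAT).

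The ratio of miR-25-3p to miR-19d-3p varied far more. Its 3 highest values were 807 in VAT 4, 624.9 in IMAT 5 and 115 in IMAT 4, and its lowest was 22.0 in VAT 5. In SAT it ran from 60.6 to 97.0. Mean log2 ratios were 6.58 ± 2.21 in VAT, 6.27 ± 0.27 in SAT and 6.98 ± 1.36 in IMAT, and the exact permutation p-values of the 3 depot differences were 0.76, 0.84 and 0.33 (two-sided, adjusted p = 0.84 each over these 3 planned tests). The IMAT libraries other than IMAT 5 ran from 52.1 to 115, the last of these resting on 2 reads of miR-19d-3p in IMAT 4.

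The ratio of miR-92b-5p to miR-25-3p, 0.0517 in IMAT 1 and 0.0478 in IMAT 4, lay between 0.000524 and 0.00647 in the other 12 libraries. Depot means of the log2 ratio were -7.86 ± 0.85 in VAT, -8.65 ± 1.54 in SAT and -6.83 ± 2.48 in IMAT. They differed by 1.03 for IMAT against VAT, -0.79 for SAT against VAT and 1.82 for IMAT against SAT. None of these differences was distinguished from the spread of the libraries (two-sided exact permutation tests, adjusted p = 0.59 each over 9 ratio tests).

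**Figure D3:**
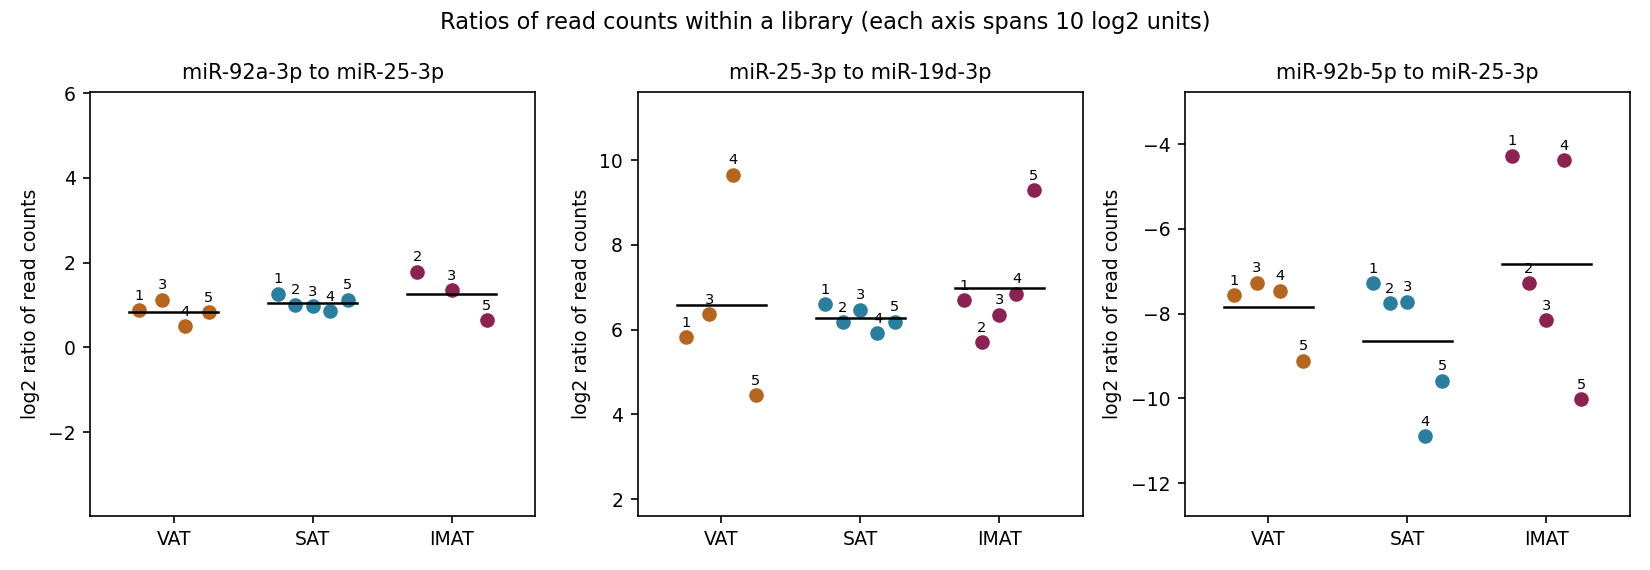
Log2 ratios of read counts within each library, numbered by replicate, for 3 pairs of miRNAs; black bars are depot means and each axis spans 10 log2 units. The miR-92a-3p to miR-25-3p ratio stays between 0.50 and 1.79 in the 12 libraries where both are above 0. IMAT 1 and IMAT 4, with miR-92a-3p listed at 0, are not shown for it. The miR-25-3p to miR-19d-3p ratio reaches 9.66 in VAT 4 and 9.29 in IMAT 5, and the miR-92b-5p to miR-25-3p ratio is highest in IMAT 1 and IMAT 4.

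The partners of these miRNAs in their clusters (miR-17, miR-18, miR-20, miR-93 and miR-106) were present as 12 entries, of which 9 could be tested. None was called in any of the 3 comparisons, against the 13.5, 12.5 and 6.73% of all entries given above; their median log2 fold changes were -1.18, -0.81 and 0.95. With the miR-106a entries counted once, the medians of the 8 distinct partners were -1.19, -1.03 and 0.22. No entry was a miR-32 or a miR-367, which share the seed of miR-25 and miR-92 at other loci. miR-20a-5p was the most abundant partner, at 198, 208, 11.9 and 187 TMM-scaled CPM in VAT 1, 3, 4 and 5 and 118 to 172 in SAT. In IMAT it stood at 65.8 to 139 in replicates 1 to 4 and was listed at 0 in replicate 5.

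In VAT 4, where miR-25-3p and miR-92a-3p were highest, 6 of the 9 partner entries were at their lowest VAT value and 2, both arms of miR-106a, at their highest. In IMAT 5, 2 of the 9 lay below every other IMAT library (miR-20a-5p and miR-93a-5p), and the same 2 miR-106a entries were at their highest. miR-17-5p, miR-18b-5p and miR-18b-3p were at 0 there, tied for their lowest IMAT value with other IMAT libraries. In VAT 4, miR-17-5p stood at 8.75 TMM-scaled CPM against 69.5 to 99.9 in the other VAT libraries. miR-93a-5p, whose mammalian relative miR-93 neighbours miR-25, stood at 4.13 against 48.9 to 58.3. miR-18a-5p and miR-19d-3p were also at their lowest VAT values there. miR-106a-5p, whose arms share their counts, went the other way: at 27.3 in VAT 4 and 42.6 in IMAT 5 it was the highest of its depot in both, 1.40-fold and 1.81-fold above the next library. In IMAT 5, miR-17-5p was listed at 0 as it was in IMAT 4, and miR-93a-5p stood at 12.9 against 13.5 to 25.9 in the other IMAT libraries. miR-20b-5p stood at 40.9 in IMAT 5, close to the 42.3 of IMAT 4, the highest IMAT library, and at 0.79 in VAT 4, the lowest of VAT.

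The reads of miR-25-3p per read of miR-93a-5p reached 1153 in VAT 4 and 179 in IMAT 5. In SAT the ratio ran from 21.2 to 34.2. Over all 327 tested entries, VAT 4 held the highest VAT value in 32.7% and the lowest in 36.1%, IMAT 5 held the highest IMAT value in 37.0% and the lowest in 16.5%, and 18.04% of entries were highest in both. Both were the libraries with the lowest muscle share of listed reads in their depots (0.0888 and 65.5%), and IMAT 5 was also the deepest. The part of muscle share and depth in these values was not tested.

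**Figure D4:**
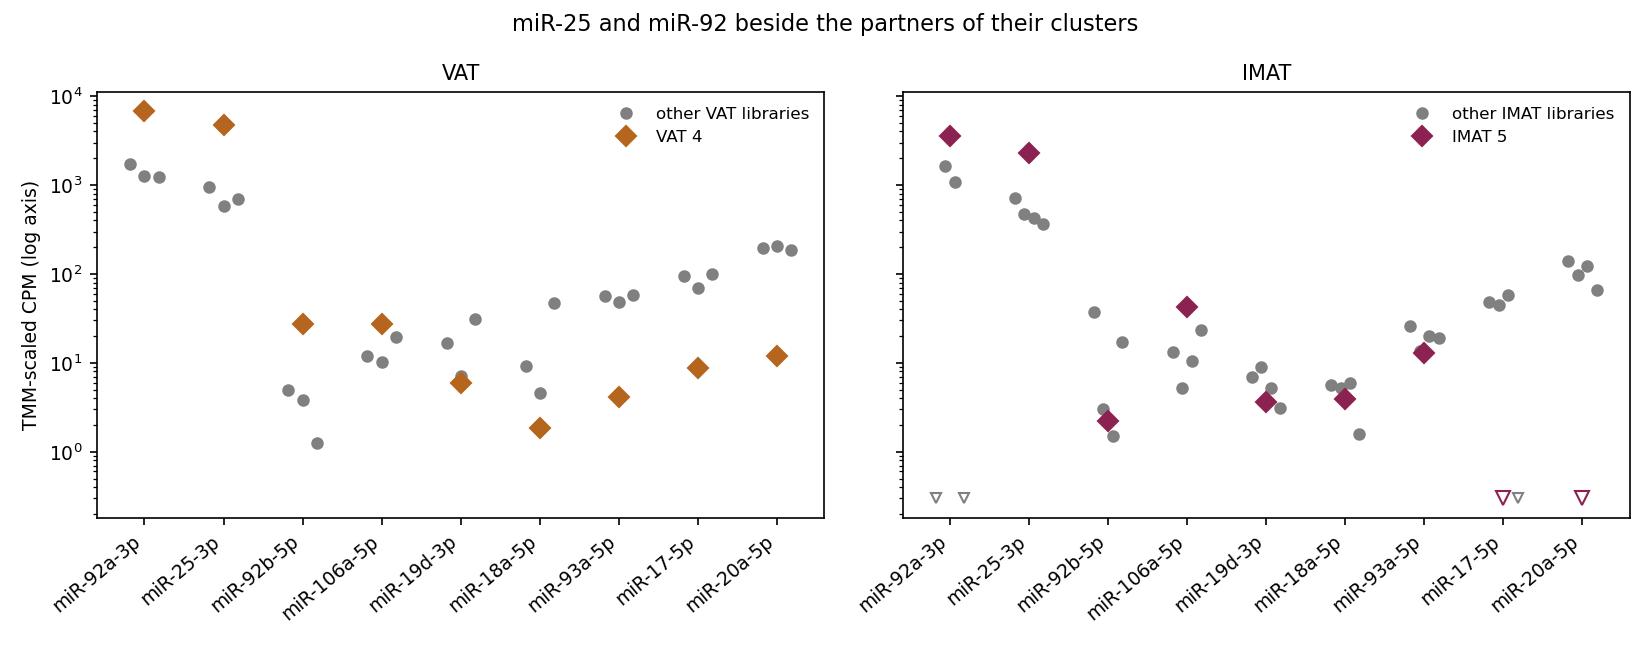
TMM-scaled CPM (log axis) of miR-25, miR-92 and miR-19d and of 5 cluster partners in VAT (left, VAT 4 as diamonds) and IMAT (right, IMAT 5 as diamonds), with the other libraries of the depot in grey and open triangles for libraries listed at 0. In VAT 4, miR-92a-3p, miR-25-3p, miR-92b-5p and miR-106a-5p lie above the other VAT libraries and miR-19d-3p, miR-18a-5p, miR-93a-5p, miR-17-5p and miR-20a-5p below them.

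Among named entries above 0 in at least 10 libraries, the pattern of each member found in all 14 libraries was set beside the others by Pearson's r of log2(TMM-scaled CPM + 1), as a description without a test, since all points share their library and its depth. With zeros kept as listed, the pattern most like that of miR-25-3p was that of let-7d-5p (r = 0.94, Spearman's rho = 0.93, n = 14). The let-7 family, to which it belongs, restrains growth genes. let-7d-5p stood at 4770 TMM-scaled CPM in VAT 4 and 1640 in IMAT 5, the highest values of their depots. Leaving out VAT 4 and IMAT 5, the libraries farthest from the median, r was 0.87. It was followed by miR-375-3p and miR-375-3-3p, which share their reads and are known from pancreatic islets (r = 0.89, rho = 0.76). Their r was 0.59 without these libraries.

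miR-19d-3p was most like miR-21b-5p (r = 0.91, rho = 0.92) and miR-21a-5p (r = 0.91, rho = 0.89), forms of a miRNA that is abundant in many growing cells, and then miR-146d-5p, of a family induced in inflammation (r = 0.84, rho = 0.78). Without VAT 5 and IMAT 4, its farthest libraries, these r values were 0.88, 0.82 and 0.74. For miR-92b-5p the closest patterns were weaker: miR-132-5p (r = 0.56), miR-22b-5p (r = 0.53) and miR-2188-3p (r = 0.46). miR-92a-3p, listed at 0 in IMAT 1 and IMAT 4, was given no ranking of its own. It was a candidate beside the other members with these zeros kept. Its r with miR-25-3p over the 12 libraries where both were above 0 was not computed.

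Marker miRNAs of the cells that such samples can hold were read in the same fit. The adipocyte-enriched list (14 entries) made up 3.92 to 8.15% of reads in VAT, 5.63 to 6.63% in SAT and 1.43 to 3.59% in IMAT, with miR-26a-5p its most abundant entry and no miR-378 entry. Its median log2 fold change was -0.50 for IMAT against VAT, -0.19 for SAT against VAT and -0.36 for IMAT against SAT (-0.60, -0.05 and -0.43 for all entries). Of its 14 entries 2, 1 and 1 were called in these comparisons, all higher, beside 13.5, 12.5 and 6.73% of all entries. The others did not pass, miR-30a-5p for example standing at -0.87, 0.10 and -0.97. miR-204-5p was higher in IMAT and in SAT than in VAT (log2 fold change 4.36 and 5.78, edgeR adjusted p = 0.00018 and 3.1e-05). miR-26d-5p was higher in IMAT than in VAT and SAT (5.95 and 4.19, edgeR adjusted p = 0.00013 and 0.0018). Of the 9 muscle entries, 8 were called higher in IMAT against VAT, 5 in SAT against VAT and 8 in IMAT against SAT. The miR-1 entries had equal or nearly equal levels, as had both miR-133a entries, so these are counts of entries, not of distinct miRNAs. Of all entries, 13.5, 12.5 and 6.73% were called in the same comparisons, in either direction. miR-1-3p, miR-1-3-3p, miR-1-4-3p, miR-206-3p, miR-133a-3p, miR-133a-3-3p, miR-499a-5p and miR-499b-5p were called in both IMAT comparisons, with log2 fold changes of 4.96 to 7.92 against VAT and 2.48 to 4.99 against SAT. miR-206-3p, both miR-133a entries and both miR-499 entries were called in SAT against VAT (2.48 to 3.79).

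Of the markers of blood and vessels, 0 entries passed the test in any comparison, beside 13.5, 12.5 and 6.73% of all entries. miR-126-3p, the endothelial marker, made up 1.23 to 4.37% of listed reads in VAT (lowest in VAT 4), 5.21 to 8.24% in SAT and 0.506 to 1.40% in IMAT. Under TMM scaling its log2 fold change was -0.07 for IMAT against VAT, 1.21 for SAT against VAT and -1.28 for IMAT against SAT. The white blood cell entries, led by miR-150-5p, summed to 0.0356 to 0.112% in VAT, 0.0233 to 0.0616% in SAT and 0.00352 to 0.0169% in IMAT (highest in IMAT 5). Their median log2 fold change under TMM scaling was -1.75, -2.31 and -0.14 in the same order of comparisons. Of the red blood cell list only miR-144 had entries, led by miR-144-5p, and both were at 0 in VAT 4, IMAT 4 and IMAT 5. The part of these cell types in the miR-19, miR-25 and miR-92 levels was not tested.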

How the data were processed

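Small RNA was sequenced from adipocytes of 3 depots, and the title of each sample gave its depot. The deposited table holds read counts per miRNA entry, not scaled, and a CPM column per library, per the file headers and values. That CPM equals the count over the library's summed counts, less those of the first entry listed, within 0.005. The length column gives the mature length. The submitters' processing notes list Trimmomatic 0.30 and edgeR 3.4.6 and give no role for either. The aligner, caller and genome build are items not given in the sources used here. There were 2 columns of per-sample values that matched no sample label and were not used. The entries with reads in 4 or more libraries went into edgeR 4.0.16 (R 4.3.3; quasi-likelihood, TMM, no block, two-sided), with limma 3.58.1 and DESeq2 1.42.0 as alternatives; the scripts were first tested on simulated data. A zero was called beyond counting error where 20 or more reads would follow from the lowest share above 0 in its depot. Entries were linked where counts differed by no more than 2 reads or 10%, whichever was greater, in every library with both above 0. At least 4 such libraries were needed, with 20 or more reads in 1 of them. A joined set took its highest count in each library. Ratios were compared by exact permutation tests in Python 3.11.15. Depths of 759369 to 11843805 reads leave counts under about 30 imprecise, and intervals cover counting error only, since amplified reads are not independent molecules.

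Every member is named. Also named are the 3 named entries most like each member above 0 in all libraries, and, of the marker and cluster partner lists, the called and the most abundant entries. The members and lists were chosen with earlier results of these data known. Mature sequences and genome positions were not used here.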

Additional observations from a re-analysis of the deposited data

Results flagged for a closer look

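Within a depot, 23 sets of 4 or 5 values (5 levels and 3 ratios by depot, where each could be examined) were searched for a library whose gap to its nearest neighbour exceeds Dixon's 95% critical value, and 7 were found. A chance rate of about 1 set in 20 holds for normally spread values. Levels were searched without taking logs, so their chance rate may be higher, and the sets share libraries. VAT 4 stood apart for miR-92a-3p at 6740 TMM-scaled CPM (nearest VAT library 1741), for miR-25-3p at 4760 (nearest 953) and for miR-92b-5p at 27.0 (nearest 5.01). IMAT 5 stood apart for miR-25-3p at 2296 (nearest 720). miR-19c-4-3p was above 0 in SAT 4 alone of its depot, at 11.8, and in IMAT 3 alone of its depot, at 19.5. A single value above 0 among zeros is always marked, whatever its size. VAT 5 stood apart for the log2 ratio of miR-92b-5p to miR-25-3p, at -9.12 (nearest -7.57).

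Reads were also found for the 4 entries that were in too few libraries to test. The highest counts were 460 for miR-19a-3-3p and 454 for miR-19a-3p, both in VAT 3, and 173 for miR-19c-5p and 174 for miR-19c-3-3p, both in VAT 1. Each is above the 3 reads that a count of 0 allows.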

How the results depend on the processing

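Of the 5 members, 0 were called in IMAT against VAT under TMM scaling, and 2 under library totals, 1 by DESeq2, 4 by limma on log2(CPM + 1), 4 with zeros beyond counting error missing, 1 without VAT 4 and IMAT 5 together and 0 to 1 with single libraries left out. In IMAT against SAT 0 became 1 under library totals, 3 by limma on log2(CPM + 1), 3 with zeros missing and 1 without VAT 4 and IMAT 5. In SAT against VAT it was 0 in every setting run. Over all entries the count in IMAT against VAT went from 44 to 162 under library totals, 86 by DESeq2, 176 by limma, 220 with zeros missing, 26 without a filter, 26 with only these depots in the fit, 102 without VAT 4 and IMAT 5, and 34 to 68 with single libraries left out (68 without VAT 4 and 68 without IMAT 5). In SAT against VAT it went from 41 to 63 by DESeq2, 69 with zeros missing, 17 without a filter, and 26 to 48 with single libraries left out (27 without VAT 1, 27 without VAT 5, 26 without SAT 2 and 26 without SAT 3). In IMAT against SAT it went from 22 to 131 under library totals, 47 by DESeq2, 174 by limma, 208 with zeros missing, 11 without a filter, 59 without VAT 4 and IMAT 5, and 15 to 47 with single libraries left out (47 without VAT 4 and 37 without IMAT 5). The split of SAT against VAT was 24 higher and 17 lower with TMM and 14 and 25 with median-ratio size factors.

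Signs turned as follows, in log2 units. miR-92b-5p in IMAT against VAT was -1.07 under library totals, -0.94 by limma with and without zeros, and -0.30 to 1.96 with single libraries left out (below 0 without VAT 5 and without IMAT 1). In IMAT against SAT it was -0.10 by limma in both forms. miR-25-3p in IMAT against VAT spanned -1.48 to 0.30 with single libraries left out, and in SAT against VAT -1.03 to 0.21, or 0.20 without VAT 4 and IMAT 5. In IMAT against SAT it was 0.43 with muscle miRNAs out of the totals, 0.13 without a filter, 0.11 with at least 10 reads in 4 libraries, 0.13 with linked entries joined, 0.056 with only these depots and -0.69 to 0.29 with single libraries left out. miR-92a-3p in SAT against VAT spanned -0.61 to 0.33, or 0.32 without VAT 4 and IMAT 5. miR-19d-3p in SAT against VAT was 0.029 by limma in both forms and spanned -0.74 to 0.38. miR-19c-4-3p in IMAT against SAT was -0.87 under library totals, -0.17 by limma and -2.57 with zeros missing, where only SAT 4 was left in SAT. It spanned -6.79 to 7.45 with single libraries left out. At both ends a depot was at 0 in every library left: IMAT without IMAT 3 (-6.79) and SAT without SAT 4 (7.45). The ratio of miR-25-3p to miR-19d-3p in IMAT against VAT spanned -0.31 to 1.43, and in SAT against VAT -1.01 to 0.72, or 0.72 without VAT 4 and IMAT 5. The added ratio of miR-92a-3p to miR-25-3p in IMAT against SAT spanned -0.051 to 0.52. Of the log2 fold changes run under alternatives, 336 kept direction and side of the threshold, 22 passed it with the same sign and 29 changed sign. Of the ratio values, 148 kept both and 5 changed sign. The causes were not tested. Leaving out VAT 4 and IMAT 5 together and both ratios against miR-25-3p were chosen after seeing the data. DESeq2 gave neither a p nor an adjusted p for miR-25-3p.

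With the replicate number as a block, calls over all entries went to 28 in IMAT against VAT and 27 in SAT against VAT, and 0 members were called. No label pairs the numbers. Of 13 pairs of libraries with the same number, 4 had a correlation of their deviations from the depot means over 0.1 (range -0.23 to 0.18). Only 1 of 14 libraries correlated best with its own number. Zeros beyond counting error and the muscle share enter these correlations, so they cannot show whether a number marks 1 fish. Counts of 2 to 59 reads limit miR-92b-5p and miR-19d-3p in IMAT.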
